A study of Mus musculus with 6 samples.

Results

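Genes of xenobiotic metabolism were followed in the hearts of mice whose Na/K-ATPase differs in its affinity for cardiotonic steroids. The genes were chosen by name and by measured level in these same hearts: protein-coding genes whose symbol begins with Cyp and a digit, or with Aox, Sult, Fmo, Ephx, Ces or Ugt, and that reached 10 counts in no fewer than 3 hearts. Of 54532 genes in the count table, 178 had such a symbol and 39 of these reached the level. The choice used levels and not a difference between genotypes, but Aox1 and Sult1a1, after which the group is named, were already known to differ in these data, and their values are given as a description. Whole hearts were taken from male mice of 3 months on a C57BL/6 background. The 3 α1r/rα2s/s hearts (resistant; mice 368, 369 and 370) carried the cardiotonic steroid-resistant α1 subunit of ordinary mice, and the 3 α1s/sα2s/s hearts (sensitive; mice 379, 380 and 381) carried α1 with amino acid substitutions, introduced into the mouse gene, that give it a high affinity. The sensitive α2 subunit was shared by both genotypes, the labels name no treatment, and the substitutions were present in all cells of the animal rather than in cardiomyocytes alone. The comparison asked which of these enzymes differed in RNA level when α1 was made sensitive.

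Foreign compounds, and many of the body's own lipids, steroids and vitamins, are cleared in steps. Phase I enzymes add or expose a reactive group: cytochromes P450 (Cyp) and flavin monooxygenases (Fmo) insert oxygen, aldehyde oxidases (Aox) oxidize aldehydes and ring nitrogen compounds, epoxide hydrolases (Ephx) open epoxides and carboxylesterases (Ces) cut esters. Phase II enzymes then attach a water-soluble group, sulfate in the case of sulfotransferases (Sult) and glucuronic acid in that of UDP-glucuronosyltransferases (Ugt). The liver holds most of this activity, while in the heart several of the enzymes are better known for handling fatty acid epoxides, sterols and retinoids.

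Members came from every one of the 7 families but unevenly. The Cyp family gave 22 members of 100 genes, Fmo 5 of 8, Ces 4 of 19, Ephx 3 of 4, Aox 2 of 4, Sult 2 of 21 and Ugt 1 of 22. Of the others, 84 had no count in any heart and 55 had counts below the level. Of the 5 Fmo symbols, Fmod encodes fibromodulin, a proteoglycan of the extracellular matrix that is no monooxygenase and entered by its letters alone. Just inside the level, the third-highest count over the hearts was 12 for Cyp46a1, 13 for Cyp1a1 and 14 for Cyp7b1, and just outside it was 9 for Cyp2t4, 8 for Cyp2ab1 and 6 for Ugt3a2. The level was reached in all 6 hearts by 30 members, and by Cyp1a1 and Ugt1a7c in every resistant and no sensitive heart. Those 2 genes could only enter with a lower sensitive level, so the direction of their difference is no independent result. All 39 passed the filter on low counts of the test.

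Total counts per heart lay between 19309312 and 20470065, and the 39 genes took 0.0709% to 0.0912% of them. Markers of cardiomyocytes were abundant in all 6 hearts. Of 6 hepatocyte markers, 2 had no count in any heart, Alb among them. The summed level of the 6 was 2.21 to 4.54 CPM per heart. In whole hearts, fewer cells of a type and less RNA per cell cannot be told apart. Between pairs of hearts within a genotype the mean chi-square was 6.85 to 13.1 per gene, more than counting noise gives, so none was a repeat of another.

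Per kilobase of gene length (RPKM), the 39 genes spanned from 0.114 for Aox3 to 104.8 for Ephx2, with a median of 2.04. Ephx2, the soluble epoxide hydrolase that turns fatty acid epoxides into diols, was far above the others, followed by the carboxylesterase Ces1d at 53.3, the microsomal epoxide hydrolase Ephx1 at 17.8, Sult1a1 at 13.4, the mitochondrial sterol hydroxylase Cyp27a1 at 10.1 and Cyp4b1 at 9.83. Aox1, Fmo2 and Fmo1 came next at 7.74, 7.45 and 7.37 RPKM. Cyp27a1 and Cyp4b1 overlapped over the hearts, as did Fmo2 and Fmo1. Within their families Ephx2 made up 85.1% of the summed RPKM, Ces1d 96.5%, Aox1 98.6% and Sult1a1 98.9%, whereas Cyp27a1 was the highest Cyp gene with only 17.1%.

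**Figure D1:**
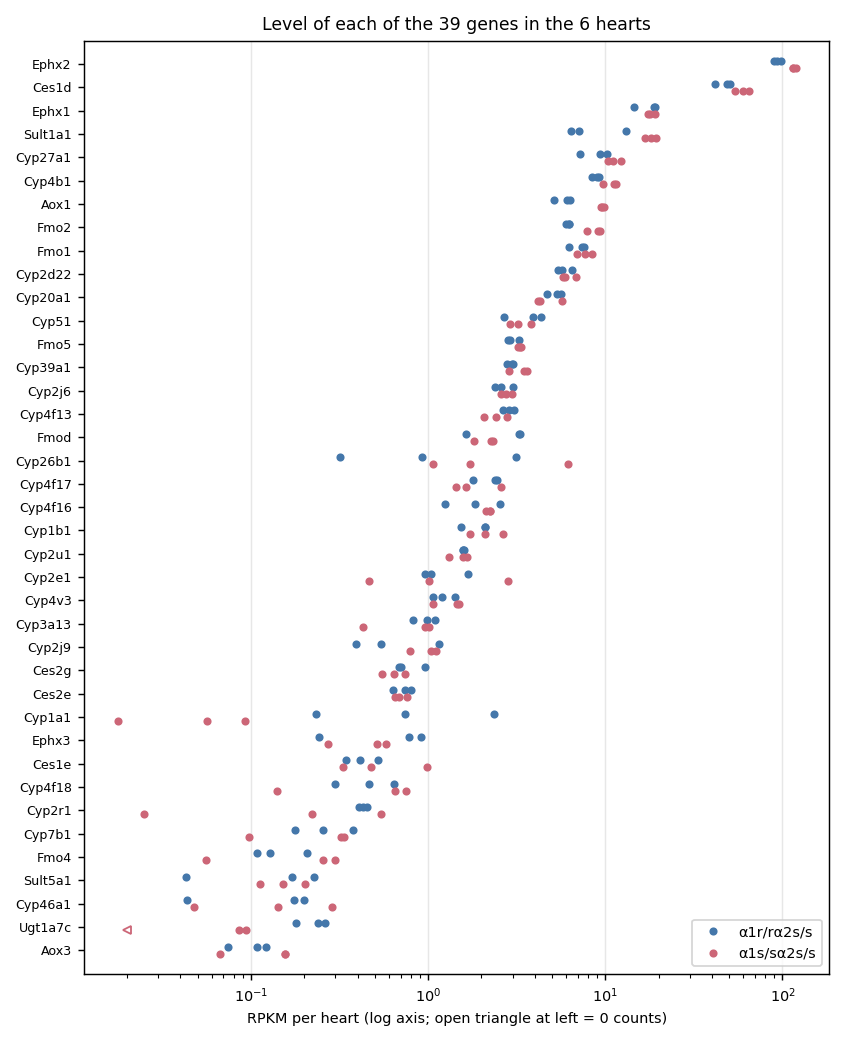
Level of the 39 genes in each heart, in RPKM on a log axis, ordered by mean level, with resistant (α1r/rα2s/s) hearts in blue and sensitive (α1s/sα2s/s) hearts in red. Ephx2 and Ces1d lie apart at the top with means of 104.8 and 53.3 RPKM, and for most genes the colours overlap.

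In sensitive hearts 4 of the 39 genes were higher and 1 was lower by edgeR's quasi-likelihood test over all 14866 genes tested, with a Benjamini-Hochberg adjusted p under 0.05. The 5 genes are 12.8% of the members, and 1.44% of all genes tested passed. By direction, the 4 higher genes (Aox1, Sult1a1, Fmo2 and Ephx2) are 10.3% of the members, beside 0.78% of all genes, and the 1 lower gene (Cyp1a1) is 2.56% of them, beside 0.659%. Aox1 and Sult1a1 were known to differ and the direction of Cyp1a1 was set by the choice, which leaves Fmo2 and Ephx2 among the 5. The members as a whole were also chosen with earlier results of these data known, so these shares are a description. The genotypes did not overlap in CPM (counts scaled to library size with TMM factors) for 9 members, or 23.1%, and for 20% of all genes. The 9 include Aox1 and Sult1a1, known to differ, and Cyp1a1 and Ugt1a7c, whose separation the level fixed, and of the other 35 members 5 did not overlap, or 14.3%. By DESeq2, which gave an adjusted p to 22 members, 5 passed (22.7%), beside 3.89% of its genes; Ces1d took the place of Cyp1a1, which was given none.

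The fold change lay within 0.5 on the log2 scale for 31 members, or 79.5%, and for 90.2% of all genes. It was above 0 in 25 and below 0 in 14 members, with a median of 0.13, where the median of all genes was -0.01, and the median size of the change regardless of direction was 0.23 in members and 0.14 in all genes. An unadjusted p under 0.05 was reached by 9 members, or 23.1%, and by 14.5% of all genes. These are the same 9 genes that did not overlap in CPM, Aox1, Sult1a1, Cyp1a1 and Ugt1a7c among them. Of the other 35 members 5 had such a p, or 14.3%. For 10 members the whole 95% interval of the log2 fold change lay within 0.5 of 0, while the median width of the interval over the 39 genes was 0.95, too wide to resolve a modest change in many of them.

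**Figure D2:**
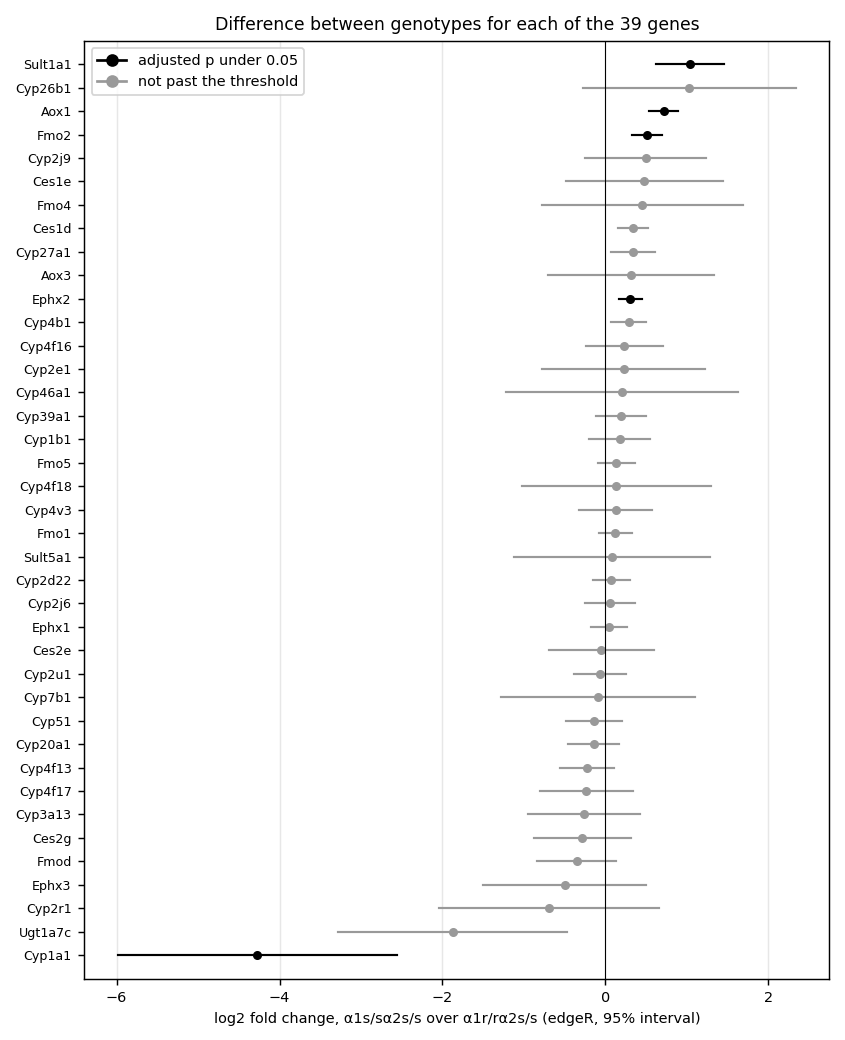
Log2 fold change of sensitive over resistant hearts for the 39 genes, with the 95% interval from edgeR (3 hearts per genotype). The 5 genes in black had an adjusted p under 0.05, Cyp1a1 lies far to the left at -4.27, and the grey intervals of most other genes cross 0.

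Aox1, which oxidizes aldehydes and nitrogen-containing rings and produces superoxide and hydrogen peroxide as it does so, had counts of 1149, 938 and 1058 in the resistant hearts and 1656, 1583 and 1640 in the sensitive hearts. The lowest sensitive heart was well above the highest resistant one, and the sensitive hearts were close to each other. Mean CPM went from 50.9 ± 5.38 (SD, n = 3) to 83.5 ± 1.44 (SD, n = 3), a log2 fold change of 0.71 (SE 0.08, adjusted p = 0.000626). It passed the test without any 1 of the 6 hearts, with adjusted p from 0.00126 to 0.00407. Its neighbour Aox3 had 16, 11 and 17 counts in resistant and 22, 9 and 21 in sensitive hearts, overlapping, with a log2 fold change of 0.31 and a 95% interval from -0.70 to 1.33. Aox2 had 2 counts in each of mice 370 and 380 and none elsewhere, and Aox4 had none.

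Sult1a1, a sulfotransferase of phenols, had counts of 201, 223 and 391 in the resistant and 508, 554 and 527 in the sensitive hearts. The groups did not overlap, and mouse 370 stood above the other resistant hearts. Mean CPM was 13.3 ± 5.52 and 27.2 ± 1.96 (SD, n = 3 each), a log2 fold change of 1.04 (SE 0.19, adjusted p = 0.0190). The adjusted p was 0.0602 without mouse 368, 0.0594 without mouse 369 and 0.0602 without mouse 380, and the fold change then stayed between 0.85 and 0.99. The table lists Sgf29 on the opposite strand, overlapping the 3′ end of Sult1a1, with 116 to 183 counts per heart, and whether strand was used in counting is not given in the sources used here. Other Sult1 genes had at most 5 counts in a heart, and Sult1b1 and Sult1c1 had none. The distant relative Sult5a1 was low, with 4 to 21 counts and a log2 fold change of 0.08 (95% interval -1.12 to 1.28).

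Among the flavin monooxygenases, which oxidize nitrogen and sulfur atoms of drugs and amines, Fmo2 was higher and its neighbours did not pass. Counts of Fmo2 were 708, 728 and 700 in the resistant hearts and 1023, 996 and 847 in the sensitive ones. The resistant hearts were nearly alike and all 3 sensitive hearts were above them. Mean CPM was 34.6 ± 0.703 and 49.0 ± 4.5 (SD, n = 3 each), with a log2 fold change of 0.50 (SE 0.09, adjusted p = 0.0100) that passed without any 1 heart (adjusted p 0.00494 to 0.0486). Fmo1, which lies beside it at a similar level, had 1003, 970 and 785 counts against 970, 1008 and 846, overlapping throughout, and its log2 fold change was 0.12 (95% interval -0.08 to 0.32). The ratio of Fmo2 to Fmo1 counts within a heart, which no library scaling can alter and which was chosen after the values were seen, was 0.706, 0.751 and 0.892 in resistant and 1.05, 0.988 and 1.0 in sensitive hearts. These did not overlap, and the exact two-sided permutation test gave p = 0.1, the smallest that 3 against 3 hearts allow. Fmo5 had a log2 fold change of 0.13 (95% interval -0.09 to 0.36), and Fmo4, with 4 to 21 counts per heart, one of 0.45 with an interval from -0.78 to 1.68. Fmod, the matrix proteoglycan, had counts of 225, 227 and 107 against 154, 114 and 144, with an adjusted p of 0.506.

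Ephx2 had the highest counts of the group, 5120, 4664 and 4600 in resistant and 5770, 5380 and 5673 in sensitive hearts. All sensitive hearts were above all resistant hearts, by a small margin next to the level. Mean CPM was 233 ± 10.9 and 288 ± 5.75 (SD, n = 3 each), with a log2 fold change of 0.31 (SE 0.07, adjusted p = 0.0358). Leaving out any 1 heart moved the adjusted p to between 0.0678 and 0.114, so this call needed all 6 hearts, while DESeq2 gave an adjusted p of 0.000165. Ephx1, which hydrolyses epoxides of foreign compounds, had 782, 766 and 567 counts against 745, 663 and 651, and a log2 fold change of 0.04 with an interval from -0.18 to 0.27. Ephx2 over Ephx1 within a heart was 6.55, 6.09 and 8.11 in resistant and 7.74, 8.11 and 8.71 in sensitive hearts, which overlap (exact two-sided permutation p = 0.2). A difference between these epoxide hydrolases was therefore not resolved. Ephx3 had 12 to 48 counts per heart and an adjusted p of 0.670.

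**Figure D3:**
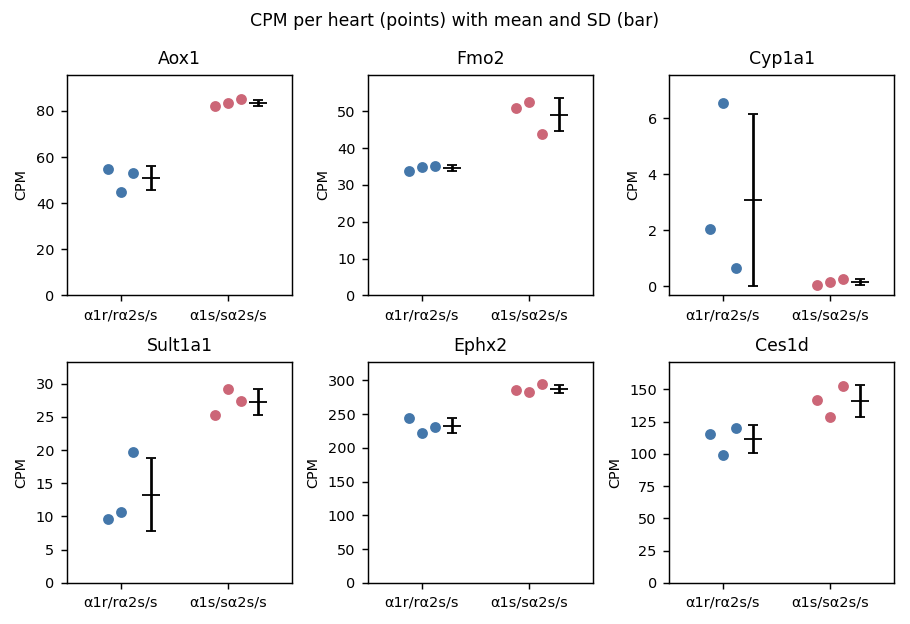
CPM in each heart (points) with the mean and SD of 3 hearts (bar) for 6 genes, resistant in blue and sensitive in red, on linear axes from 0, or just below 0 for Cyp1a1. In Aox1, Sult1a1, Fmo2, Ephx2 and Ces1d every sensitive heart lies above every resistant one, and in Cyp1a1 1 resistant heart reaches 6.54 CPM while the sensitive hearts stay at or under 0.259.

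Cyp1a1, the classic target of the aryl hydrocarbon receptor, had 43, 137 and 13 counts in the resistant hearts and 1, 3 and 5 in the sensitive hearts. Every resistant heart was above every sensitive one, but mouse 369 alone held most of the counts, and the resistant hearts spanned 0.653 to 6.54 CPM among themselves. Mean CPM was 3.08 ± 3.08 and 0.156 ± 0.105 (SD, n = 3 each), with a log2 fold change of -4.27 (SE 0.80, adjusted p = 0.0190). Summed over hearts, 193 against 9 counts give a ratio of 20.3 between resistant and sensitive (95% interval 10.5 to 45.0, which covers counting error only). The choice by level set the direction of this ratio. Without mouse 369 the log2 fold change was -3.08 with an adjusted p of 0.0784, and the adjusted p was 0.0686 without mouse 379 and 0.0646 without mouse 380. Cyp1b1, a relative in the same response, had 225, 224 and 157 against 273, 203 and 170 counts, with a log2 fold change of 0.17 (95% interval -0.20 to 0.54).

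No other Cyp gene passed the test. Cyp4b1, a monooxygenase of fatty acids and aromatic amines, had 397, 433 and 404 counts in resistant and 522, 415 and 488 in sensitive hearts. In CPM, which includes the TMM factors, its groups did not overlap, by 20.7 in mouse 369 against 21.8 in mouse 380. The log2 fold change was 0.29 (adjusted p = 0.194). Cyp27a1, which hydroxylates cholesterol side chains in mitochondria, had 423, 468 and 310 against 484, 509 and 436 counts, likewise without overlap in CPM, and a log2 fold change of 0.34 (adjusted p = 0.225). The related genes Cyp2j6 and Cyp2j9 had log2 fold changes of 0.05 (95% interval -0.25 to 0.36) and 0.49 (-0.26 to 1.24). Cyp4f13, of the leukotriene and fatty acid hydroxylases, had one of -0.23 (adjusted p = 0.535), Cyp39a1, an oxysterol hydroxylase, 0.19 (adjusted p = 0.589), the drug-metabolizing Cyp2d22 0.07 (-0.15 to 0.30), Cyp20a1 -0.14 (-0.46 to 0.17), the fatty acid hydroxylase Cyp2u1 -0.06 (-0.38 to 0.26) and Cyp51, which acts in cholesterol synthesis, -0.14 (-0.48 to 0.21). Cyp2r1, a vitamin D hydroxylase, had 18, 19 and 19 counts in resistant hearts but 23, 1 and 9 in sensitive ones, with an adjusted p of 0.663. The 6 Cyp genes that remain, Cyp4f16, Cyp4f17, Cyp4f18, Cyp4v3, Cyp3a13 and Cyp46a1, had log2 fold changes from -0.27 to 0.23, and Cyp7b1 of bile acid and oxysterol metabolism had one of -0.09, all with intervals across 0 and genotypes that overlapped.

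Cyp26b1, which breaks down retinoic acid, varied widely between hearts of the same genotype, with a coefficient of variation of 102% in resistant and 93.1% in sensitive hearts. Its counts were 353, 104 and 34 in resistant and 666, 108 and 178 in sensitive hearts, a 19.4-fold range of CPM from the highest to the lowest heart. Mice 368 and 379 were high in their groups, and the groups overlapped, with a log2 fold change of 1.03 (SE 0.61, adjusted p = 0.467). Cyp2e1, an ethanol-oxidizing enzyme of liver and fat, had 47, 76 and 41 against 122, 19 and 42 counts, highest in mouse 379. The summed CPM of 7 adipocyte markers was also highest in that heart, at 12.2 beside 3.37 to 5.54 in the other 5 hearts. Their part in Cyp2e1 and Cyp26b1 was not tested.

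Ces1d, which hydrolyses esters including triglycerides, had 2415, 2076 and 2384 counts in resistant and 2849, 2442 and 2947 in sensitive hearts. In CPM, 111 ± 10.8 and 141 ± 12.2 (SD, n = 3 each), the groups did not overlap. The log2 fold change of 0.34 (SE 0.09) had an adjusted p of 0.0665 by edgeR and 0.00718 by DESeq2, so its call turned on the tool. The other carboxylesterases were much lower: Ces1e had 14 to 41 counts and a log2 fold change of 0.48 (95% interval -0.49 to 1.44), Ces2g 38 to 72 counts and -0.28 (-0.88 to 0.31), and Ces2e 34 to 45 counts and -0.05 (-0.70 to 0.59). Ugt1a7c, the only glucuronosyltransferase at this level, had 23, 21 and 15 counts in resistant and 8, 0 and 7 in sensitive hearts. Its summed counts, 59 against 15, give a ratio of 3.72 (95% interval 2.08 to 7.06, counting error only), and the adjusted p was 0.192. The choice by level set the direction of this ratio, and the interval leaves out the spread between animals. The Ugt1a genes share their last exons, the other Ugt1a genes of the table had at most 3 counts in a heart, and how shared reads were assigned is not given in the sources used here. Ugt8a had at most 3 counts.

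**Figure D4:**
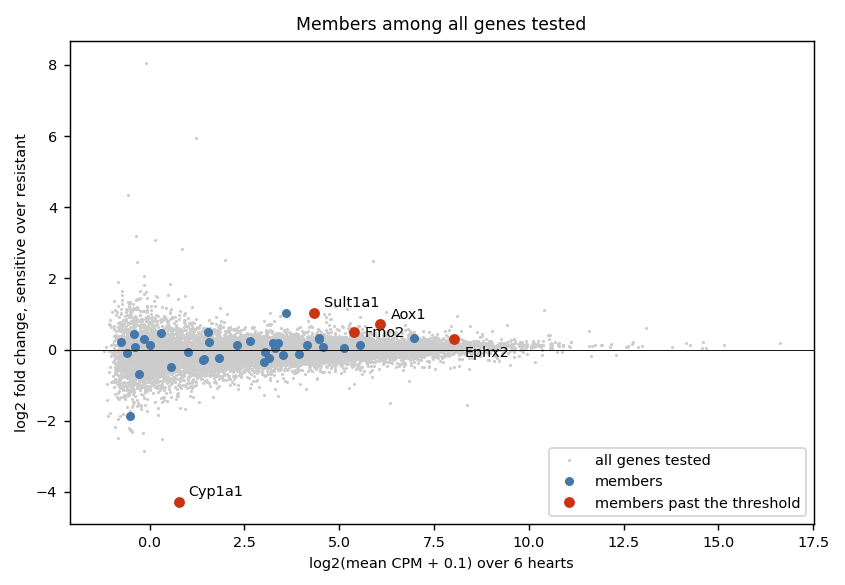
Log2 fold change of sensitive over resistant hearts against mean level, as log2 of mean CPM plus 0.1, for all 14866 genes tested (grey) and the 39 members (blue, or red with an adjusted p under 0.05). Most members lie within the grey cloud of genes at a similar level, the red ones are labelled, and Cyp1a1 at -4.27 is the lowest of them.

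The summed level of the group is dominated by Ephx2 and Ces1d. Over all 39 members it was 767, 705 and 718 CPM in the resistant hearts and 927, 866 and 892 CPM in the sensitive hearts. The genotypes did not overlap, and the ratio was 1.23. TMM factors were 0.989 to 1.06 in resistant and 0.945 to 0.986 in sensitive hearts, which raises the sensitive sums next to the resistant ones. Without these factors the 39 genes took 0.0709% to 0.0794% of all counts in resistant and 0.0842% to 0.0912% in sensitive hearts. Without Aox1, Sult1a1 and Fmod the sums were 657 ± 30.5 and 777 ± 32.3 CPM (SD, n = 3 each), still without overlap, and the ratio was 1.18. Most of that rise lay in Ephx2 (233 and 288 CPM), Ces1d (111 and 141 CPM) and Fmo2 (34.6 and 49.0 CPM). With these taken out as well, the sums would overlap. By family the ratio was 1.63 for Aox, 2.0 for Sult, 1.25 for Ces, 1.21 for Ephx and 1.21 for Fmo without Fmod, in each of which the genotypes did not overlap, and 1.09 for Cyp (172 ± 11.6 and 188 ± 27.6 CPM), where they did. With Aox1, Sult1a1, Ces1d, Ephx2 or Fmo2 taken out of its family, the rest of that family would overlap. The single Ugt member gave 0.27, a direction that the choice by level had set. Libraries of the sensitive hearts also had more of their counts on mitochondrially encoded genes, 25.0% to 26.0% against 23.4% to 24.4%, and fewer genes with a count, 21234 to 22039 against 22139 to 22515, neither overlapping, and the part of these in the sums was not tested. These sums describe genes chosen with results known and have no test.

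**Figure D5:**
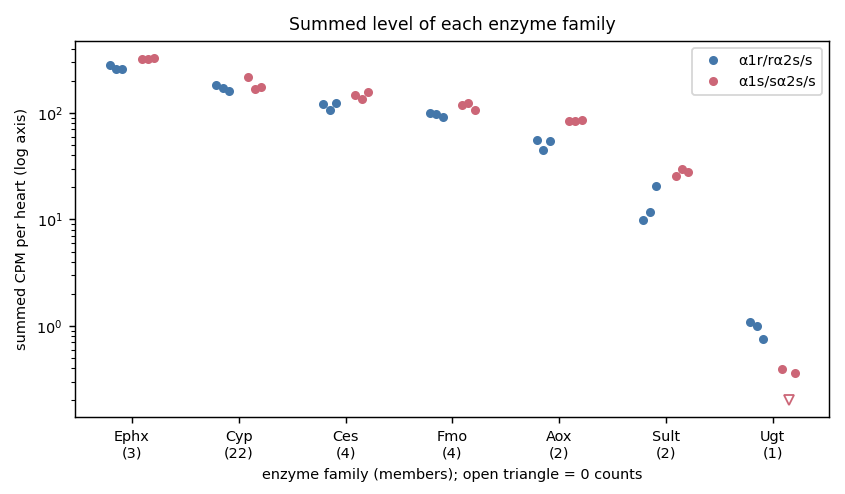
Summed CPM of each enzyme family in each heart on a log axis, resistant in blue and sensitive in red, with the number of members under the family's name and Fmod left out of Fmo. The colours are apart in 6 families, with sensitive hearts lower in Ugt and higher in the other 5, and overlap in Cyp.

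The 39 genes lie on 12 chromosomes (GRCm38), and 15 of them sit in 6 clusters within 1 Mb. Aox1 (chr1:58029931-58106413, plus strand) is followed by Aox3 (chr1:58113130-58200698), and Fmo2 (chr1:162874317-162898726, minus strand) lies next to Fmo1 (chr1:162829561-162866610) and Fmo4 (chr1:162793188-162813972). In both clusters 1 gene passed the test and its neighbours did not. Sult1a1 is at chr7:126672865-126676432, Ephx2 at chr14:66084374-66124500 and Ces1d at chr8:93166068-93197838, each on the minus strand, and Cyp1a1 at chr9:57687928-57703824 on the plus strand.

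Promoter sequences are shown for the genes that passed the test and had one in the RefSeq table (GRCm38.p6), because regulators of this group are described by short DNA elements. Each runs 5′ to 3′ on the gene's strand from 250 bases before the transcript start to 50 after it. Capitals mark matches, on either strand, to GCGTG (the core bound by the aryl hydrocarbon receptor), TGACNNNGC (the core of the antioxidant response element) or AGGTCA (an element of nuclear receptors). Fmo2 has a pair of start sites, and the Cyp1a1 window lies inside the span that the count table lists for the gene.
Aox1, chr1:58029719-58030018, plus strand: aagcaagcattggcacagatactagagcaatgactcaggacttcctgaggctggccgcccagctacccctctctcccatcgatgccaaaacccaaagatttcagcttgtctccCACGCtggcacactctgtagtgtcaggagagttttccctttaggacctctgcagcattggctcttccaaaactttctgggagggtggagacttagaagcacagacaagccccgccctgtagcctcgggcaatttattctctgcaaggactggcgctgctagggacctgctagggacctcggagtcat
Sult1a1, chr7:126676369-126676668, minus strand: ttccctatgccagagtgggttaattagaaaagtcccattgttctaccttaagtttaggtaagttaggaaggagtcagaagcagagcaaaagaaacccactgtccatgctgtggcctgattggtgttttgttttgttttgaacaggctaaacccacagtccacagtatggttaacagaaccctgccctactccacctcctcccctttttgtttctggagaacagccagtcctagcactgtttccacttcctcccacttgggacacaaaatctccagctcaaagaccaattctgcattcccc
Fmo2, chr1:162898709-162899008, minus strand: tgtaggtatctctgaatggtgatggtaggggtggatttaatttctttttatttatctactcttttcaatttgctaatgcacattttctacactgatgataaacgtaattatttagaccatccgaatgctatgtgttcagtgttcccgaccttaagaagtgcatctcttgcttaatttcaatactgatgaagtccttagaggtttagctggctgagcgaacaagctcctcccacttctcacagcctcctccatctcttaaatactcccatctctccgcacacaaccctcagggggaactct
Fmo2, chr1:162898444-162898743, minus strand: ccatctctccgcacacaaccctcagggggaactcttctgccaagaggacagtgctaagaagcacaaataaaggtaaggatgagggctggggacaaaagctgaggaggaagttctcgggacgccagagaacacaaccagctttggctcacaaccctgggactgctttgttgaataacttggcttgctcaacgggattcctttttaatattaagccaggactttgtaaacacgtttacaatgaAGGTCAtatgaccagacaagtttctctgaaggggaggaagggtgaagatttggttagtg
Cyp1a1, chr9:57697363-57697662, plus strand: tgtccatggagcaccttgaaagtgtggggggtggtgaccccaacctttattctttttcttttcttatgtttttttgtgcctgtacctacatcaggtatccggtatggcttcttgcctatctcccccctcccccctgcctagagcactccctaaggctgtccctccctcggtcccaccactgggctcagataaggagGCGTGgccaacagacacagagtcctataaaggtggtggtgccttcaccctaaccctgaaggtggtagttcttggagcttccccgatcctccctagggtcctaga
Aox1 holds GCGTG on its opposite strand, as CACGC at position -137 from the start, Cyp1a1 holds it at -54, and the downstream start of Fmo2 has AGGTCA at -9. No match was found in the other windows shown. GCGTG was in 11 of the 32 windows of 31 members (34.4%) and in 32.4% of the 32851 windows of all genes, TGACNNNGC in 2 (6.25%, against 12.4%) and AGGTCA in 3 (9.38%, against 16.3%). A match is a description of letters and not of binding.

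The partners of these enzymes were read from lists of 161 genes that are not members, of which 144 were tested. Higher in sensitive hearts were 5 and lower was 1, together 4.17%, beside 1.44% of all genes, and the median log2 fold change was 0.02. The lists were drawn up with earlier results of these data known, so this share is a description. Por, the reductase that passes electrons to microsomal P450 enzymes, had 729, 745 and 689 counts against 869, 815 and 907, a log2 fold change of 0.34 (SE 0.08, adjusted p = 0.0492), and was the only one of 11 electron donors to pass. Xdh, xanthine dehydrogenase, which uses the same molybdenum cofactor as Aox1, had 2124, 2081 and 1864 against 2525, 2929 and 2250 counts and a log2 fold change of 0.43 (SE 0.09, adjusted p = 0.0319). In both genes the genotypes did not overlap. The other 6 genes of the cofactor list did not pass, among them Gphn and Mocos, which build and sulfurate the cofactor, at -0.04 and -0.12.

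No gene that supplies the phase II donors passed. Of all genes 1.44% did, so the absence of a call in lists this short says little. Of 10 genes of sulfate activation and removal, none passed by edgeR or DESeq2 and 1 had an unadjusted p under 0.05, with Papss1 and Papss2, which make the sulfate donor, at log2 fold changes of -0.18 and 0.04. Of 6 genes of glucuronic acid supply, again none passed by either tool and 1 had such a p, although all 6 values were below 0, with a median of -0.20 and Ugdh, which makes UDP-glucuronic acid, at -0.17. Of 17 sensing factors tested, none passed by edgeR or DESeq2 and 6 had an unadjusted p under 0.05, which 14.5% of all genes had. Ahr itself was at 0.02, and its repressor Ahrr had 125, 68 and 171 counts against 62, 73 and 67, a log2 fold change of -0.77 (adjusted p = 0.223). Targets of Ahr other than the members Cyp1a1 and Cyp1b1 numbered 5 among the genes tested, and none passed by edgeR or DESeq2, with 1 at an unadjusted p under 0.05. All 5 values, that of Ahrr among them, were below 0, with a median of -0.22, Nqo1 at -0.01 and Tiparp at -0.22. The summed level of this list, Ahrr included, was 77.0 to 80.7 CPM in resistant and 68.8 to 76.4 CPM in sensitive hearts. These sums did not overlap, by 77.0 against 76.4 CPM, and would overlap with Ahrr taken out. Sums of electron donors, the cofactor list, Nrf2 targets and other phase I and phase II genes did not overlap either. Those were higher in sensitive hearts. Taken singly, 20% of all genes tested did not overlap. In the cofactor list 5 of 7 values were below 0, and without Xdh its sums would overlap. Sums of other phase I genes were apart only by 1270.7 against 1271.8 CPM and would overlap without Adh1.

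Among 16 tested targets of Nrf2, the regulator of antioxidant genes, only Gclm passed by edgeR, although 14 values were above 0. By DESeq2 Me1 passed as well. Gclm, the modifier subunit of the enzyme that starts glutathione synthesis, had 679, 582 and 550 counts in resistant and 918, 928 and 1024 in sensitive hearts. All sensitive hearts were higher, with a log2 fold change of 0.75 (SE 0.09, adjusted p = 0.00112), while its catalytic partner Gclc was at 0.02. Adh1, an alcohol and retinol dehydrogenase, was the only one of 30 other phase I genes to pass. Its counts were 160, 157 and 134 against 263, 274 and 285, without overlap, with a log2 fold change of 0.95 (SE 0.13, adjusted p = 0.00246). Of 28 other phase II genes none passed by edgeR, 7 had an unadjusted p under 0.05, and Gsto1 was among those that passed by DESeq2. Of all genes 14.5% had such a p by edgeR. Of 21 transporters, Slco3a1, an organic anion transporter, was higher with 1823, 1671 and 1822 against 2489, 2332 and 2586 counts (log2 fold change 0.56, adjusted p = 0.00167), and Slc22a3, an organic cation transporter, was lower with 242, 207 and 212 against 154, 131 and 103 (-0.69, adjusted p = 0.0491). By DESeq2 the transporter Abcb4 passed as well. In edgeR, Gclm, Adh1 and Slco3a1 passed without any 1 heart, whereas Por and Slc22a3 passed in none of those 6 fits and Xdh in 1.

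Of 47 tested genes in 12 lists of cell type markers, none passed by edgeR and 10 had an unadjusted p under 0.05. By edgeR 1.44% of all genes passed and 14.5% had such a p. Mrc1, C1qa, Acta2 and Col1a1 passed by DESeq2. All 6 macrophage markers and all 6 markers of smooth muscle and pericytes were below 0, with median log2 fold changes of -0.39 and -0.29, and in both lists the summed levels overlapped between genotypes. All 4 tested markers of adipocytes and all 4 of erythroid cells were above 0, with medians of 0.71 and 0.66 and sums that overlapped, the erythroid sum being highest in mouse 380. Fibroblast markers had a median of -0.05 and endothelial markers one of -0.11, with sums that overlapped. The summed level of 4 lung epithelium markers was 0.0477 to 0.239 CPM in resistant and 0.415 to 1.04 CPM in sensitive hearts, with Sftpc at 0 counts in each resistant heart and 8, 5 and 3 in the sensitive ones. The part of these cells in the levels of Fmo2, Aox1 and the other genes was not tested.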

How the data were processed

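Whole-heart total RNA was sequenced by Illumina NovaSeq at a company that also mapped and counted the reads. The authors deposited raw counts per gene, without normalization, for 3 α1r/rα2s/s and 3 α1s/sα2s/s hearts, grouped here by their labels. The submitters' processing notes name fastp, STAR, featureCounts and the mm10 build, and versions, strand setting and treatment of shared reads are not given in the sources used here. A second deposited table holds the authors' own comparison by DESeq2 and was not used. The members and lists, and the rule for named genes (Aox1, Sult1a1, members past the threshold, the 10 next by p, the highest of each family, close paralogs, textbook members, genes at the edge of the level, and called genes of each list), were chosen with earlier results of these data known.

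Counts were tested with edgeR 4.0.16 in R 4.3.3 (TMM factors, filterByExpr with a minimum count of 10 and total of 15, quasi-likelihood test, no covariates), with Benjamini-Hochberg adjustment over 14866 genes and a threshold of 0.05. SE was the fold change over the root of F. DESeq2 1.42.0, RLE and upper-quartile factors, 2 other count filters, a robust prior, leaving out globin and mitochondrial genes, a fold limit of 0.5 and leaving out each heart were alternatives. The script was tested on simulated data. Total counts were 19309312 to 20470065 per heart, and p-values measure the spread among 3 animals per genotype. Levels were CPM with TMM factors, or RPKM with the listed gene length. All 39 members are in GENCODE M21, 37 of them with the same coordinates. Promoters came from RefSeq GRCm38.p6 and matched 31 members. Figures were drawn with matplotlib 3.10.9. A few results are not reported here.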

Additional observations from a re-analysis of the deposited data

How the results depend on the processing

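The 5 members that passed became 2 to 4 when any 1 heart was left out, those higher went from 4 to between 2 and 3, and the 1 lower to between 0 and 1. Aox1 and Fmo2 passed in every fit run. Cyp1a1 was lost with DESeq2, with at least 10 counts in every heart and with the robust prior, each of which left 0 lower members, and the robust prior also lost Sult1a1. Ces1d was gained with DESeq2, the robust prior and no filter, and Cyp26b1 with no filter, and the cause was not tested. RLE and upper-quartile factors, and leaving out globin and mitochondrial genes, kept the same 5 genes. Over all genes the 214 calls became 409 with DESeq2, 618 with no filter, 109 with a fold limit of 0.5 and 80 to 158 without 1 heart. Calls among the partner genes went from 6 to 10, 14 and, without 1 heart, 3 to 4. A level of 1 count in 1 heart would have made 94 members in place of 39, and the Ephx ratio was 1.14 without TMM factors.

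No gene that passed changed direction. Without 1 heart the log2 fold change crossed 0 in 15 others: Cyp26b1 (-0.074 to 2.26), Ces1e (-0.076 to 0.76), Cyp1b1 (-0.0034 to 0.31), Cyp51 (-0.31 to 0.014), Cyp3a13 (-0.47 to 0.038), Cyp2d22 (-0.0055 to 0.16), Cyp2e1 (-0.73 to 0.64), Ephx1 (-0.066 to 0.12), Cyp2u1 (-0.13 to 0.027), Cyp2j6 (-0.014 to 0.16), Cyp46a1 (-0.53 to 0.63), Cyp4f18 (-0.24 to 0.58), Ces2e (-0.14 to 0.022), Cyp7b1 (-0.35 to 0.29) and Sult5a1 (-0.35 to 0.55). The hearts carry no number that pairs them. No paired analysis was possible because the labels tie no heart of one genotype to one of the other. With 3 hearts per genotype and under 50 counts per heart, as in Aox3, Fmo4, Ugt1a7c and Sult5a1, only large differences could be resolved.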
